A study of Rattus norvegicus with 28 samples.

Results

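Interleukins, tumour necrosis factor (TNF) superfamily ligands, colony-stimulating factors, their receptors and the TNF-alpha-induced proteins were followed in rat spinal cord after contusion and after transplantation of neural progenitor cells (NPCs). The members were all genes whose name on the array began with Il and a digit, Tnfsf, Tnfrsf, Tnfaip or Csf1, Csf2 or Csf3, or was Tnf itself. This rule used names alone, and it found 104 of the 35469 gene names on the array, covered by 129 probes. Of these 104 members, 73 were well above background on all 4 arrays of at least 1 group, 12 were above background on no array, and the other 19 lay between.

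Adult female Sprague Dawley rats were used throughout, in 7 groups of 4 arrays, 1 animal per array. The control group T0 was labelled as sham and described in the series' design as uninjured. Groups T1, T2, T4 and T8 were taken 1, 2, 4 and 8 weeks after a severe contusion of 250 kdyn over thoracic vertebra 8. Group T1_NPC received NPCs right after injury and T2_NPC received them 1 week after injury, and both were sampled 1 week after transplantation, so that T1 and T2 are their time-matched injured controls. The NPCs came from the cords of injured adult rats and were given as 1000000 cells in 2 injections 2 mm from the epicentre. Tacrolimus (FK-506), an immunosuppressant that acts on T cell activation, was given at 1 mg/kg. The study's methods list it in the care of all animals but time its start to the day before transplantation, and no start is given for animals without a transplant. The sample was 1.5 cm of cord around the epicentre without dura, from animals perfused with saline, so each array measured a mixture of resident and infiltrating cells. In such bulk tissue, fewer cells of a type and less RNA per cell cannot be told apart.

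Interleukins and TNF superfamily ligands are the messengers through which microglia, infiltrating leukocytes, glia and endothelium signal to each other in injured nervous tissue. Interleukin-1 and TNF act through receptors that lead to nuclear factor kappa B (NF-kappaB), whereas most other interleukins act through receptors coupled to Janus kinases and STAT factors. Each branch also has its own brakes: receptor antagonists, decoy receptors without a signalling domain, and soluble binding proteins.

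To show the sequence in front of members that the results turn on, the 250 bases upstream of the transcription start are given for 4 of them, from RefSeq on the GRCr8 build, each read 5′ to 3′ on the minus strand on which the gene lies. These 4 were chosen because they moved with injury or with time and hold a match to a searched motif. They are the receptor Tnfrsf1b (chr5:162387412-162387661), the macrophage and T cell regulator Tnfaip8l2 (chr2:185415737-185415986), the cytokine Il6 (chr4:5894576-5894825) and the CD30 receptor Tnfrsf8 (chr5:162451621-162451870). Capitals mark matches, on either strand, to the core GAGGAA bound by the myeloid factor PU.1, to the AP-1 motif TGANTCA, to the STAT motif TTCNNNGAA and to the NF-kappaB motif.
Tnfrsf1b: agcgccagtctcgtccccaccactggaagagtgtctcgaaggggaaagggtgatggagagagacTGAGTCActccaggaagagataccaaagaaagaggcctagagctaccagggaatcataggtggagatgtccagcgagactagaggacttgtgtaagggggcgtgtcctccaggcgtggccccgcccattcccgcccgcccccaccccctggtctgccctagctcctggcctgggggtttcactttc
Tnfaip8l2: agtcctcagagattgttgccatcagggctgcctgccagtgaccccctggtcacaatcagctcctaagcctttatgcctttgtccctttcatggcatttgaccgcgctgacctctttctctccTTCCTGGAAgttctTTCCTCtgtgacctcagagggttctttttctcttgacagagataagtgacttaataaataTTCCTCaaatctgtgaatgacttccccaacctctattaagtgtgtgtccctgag
Il6: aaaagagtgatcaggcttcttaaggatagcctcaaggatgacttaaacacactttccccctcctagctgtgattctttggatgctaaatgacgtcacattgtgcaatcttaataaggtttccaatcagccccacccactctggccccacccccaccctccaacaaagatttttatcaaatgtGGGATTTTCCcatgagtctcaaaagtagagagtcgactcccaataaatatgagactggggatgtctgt
Tnfrsf8: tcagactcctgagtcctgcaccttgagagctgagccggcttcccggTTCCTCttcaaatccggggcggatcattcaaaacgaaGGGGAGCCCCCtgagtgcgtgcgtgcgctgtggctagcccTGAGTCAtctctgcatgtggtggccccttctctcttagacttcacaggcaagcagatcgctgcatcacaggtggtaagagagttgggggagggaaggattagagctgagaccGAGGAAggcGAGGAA
The Tnfrsf1b window held an AP-1 match. The Tnfaip8l2 window held 2 matches to the PU.1 core and a STAT match, the Il6 window an NF-kappaB match, and the Tnfrsf8 window 3 matches to the PU.1 core, 2 overlapping NF-kappaB matches and an AP-1 match. Of the 80 members with such a window, 27 (33.75%) held the PU.1 core against 23.2% of all 27457 promoters of this length, 10 (12.5%) held the NF-kappaB motif against 6.41%, 8 (10%) held AP-1 against 6.36%, and 7 (8.75%) held STAT against 7.52%. These are matches of letters, given as a description.

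Before the results, the arrays need 2 remarks. The deposited value table and the deposited scanner outputs disagree on which array belongs to which sample for 16 of the 28 samples, all 4 of T1_NPC among them. For each of these, the scanner output filed under the sample ranked the spots differently from the sample's column (Spearman's rho 0.948 to 0.992), whereas exactly 1 other output had a rho of 1. The value table carries sample names in its columns and is used throughout. With the scanner outputs kept under the samples they were filed with, 0 members passed the test in every comparison below, so the results on all 28 arrays rest on the value table's assignment. On the 12 undisputed arrays, members still passed at T2 and T8 against T0 and in T2_NPC against T2, as given below. T1_NPC has no undisputed array. Secondly, the arrays were scanned in 3 sessions, and the 8 transplanted arrays make up the third. In the time course, sessions 1 and 2 each held all 5 groups, and the difference between these sessions, with group in the model, passed the test for 38.4% of all gene names and for 28 of the 104 members. Between 74.5% and 82.7% of spots were well above background on each array, with no saturated spot.

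Values are log2 expression, differences are on the log2 scale with the standard error of the limma fit, and a member is said to have risen or fallen where the Benjamini-Hochberg adjusted p over all 35469 gene names was under 0.05. One week after injury (T1 against T0), 61 of the 104 members passed the test, 54 higher and 7 lower, and 55 of these 61 did not overlap between the groups. The share without overlap over all gene names was not computed, here or below, so such counts say nothing particular about the members. Of all gene names tested, 44.1% passed, 19.1% higher and 25.1% lower. The median difference was 0.73 over the members and -0.10 over all gene names. At T2 the counts were 52 higher and 4 lower, with 40.0% of all gene names passing, 17.7% higher and 22.2% lower. At T4 they were 49 and 5, with 38.5% passing, 17.5% higher and 21.0% lower, and at T8 they were 51 and 6, with 39.7% passing, 18.2% higher and 21.5% lower. The members' medians at these times were 0.70, 0.58 and 0.68, and those of all gene names lay between -0.06 and -0.04. All 4 injury comparisons share the T0 arrays, so their likeness is no independent repeat. Of the members that passed, 3 at T1 (Il3, Il17d and Tnfsf11), 1 at T2 and 1 at T8 (Tnfsf18) and 3 at T4 (Il1rapl2, Il28ra and Tnfsf18) were well above background on no array of either group, and no fold is given for these. Every member that passed in an injury comparison had the same direction within session 1 and within session 2. Session 1 holds only 1 array of T1 and 1 of T4. The time-course arrays among the 12 undisputed ones are those of session 1, so they are no separate check. With the 12 undisputed arrays, 49 members passed at T2 and 52 at T8, each from 2 arrays per group.

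**Figure D1:**
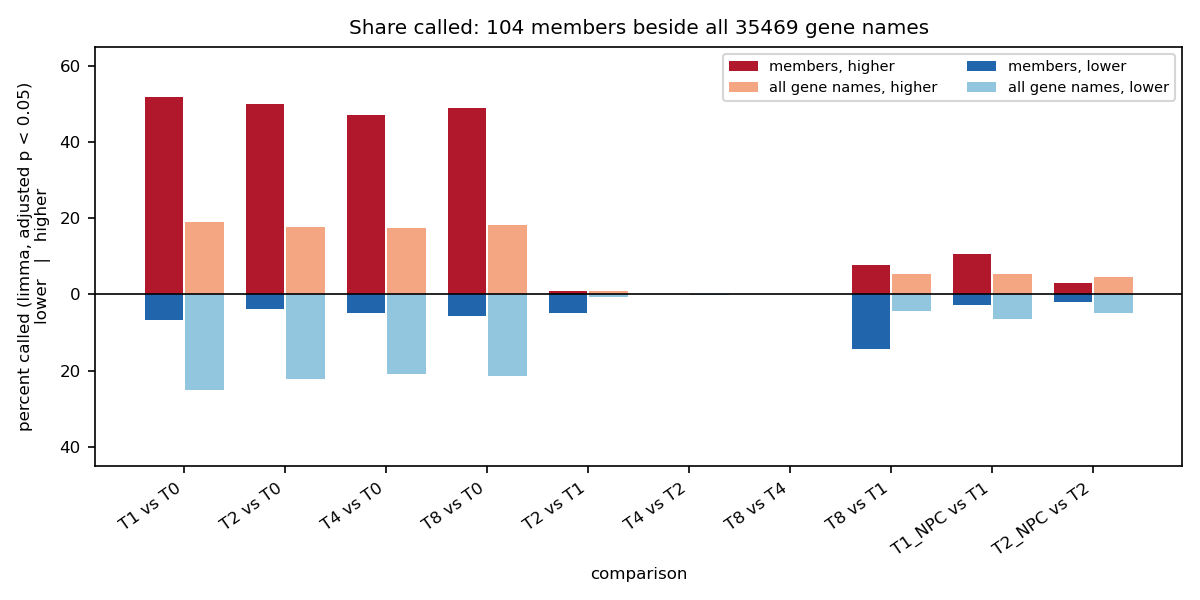
Share of the 104 members and of all 35469 gene names that passed the test (limma, adjusted p under 0.05) in each comparison, in percent, higher above and lower below the zero line. Higher members made up 51.9% of all members at T1 against T0, where 19.1% of all gene names were higher, while lower members were 6.73% against 25.1%.

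**Figure D2:**
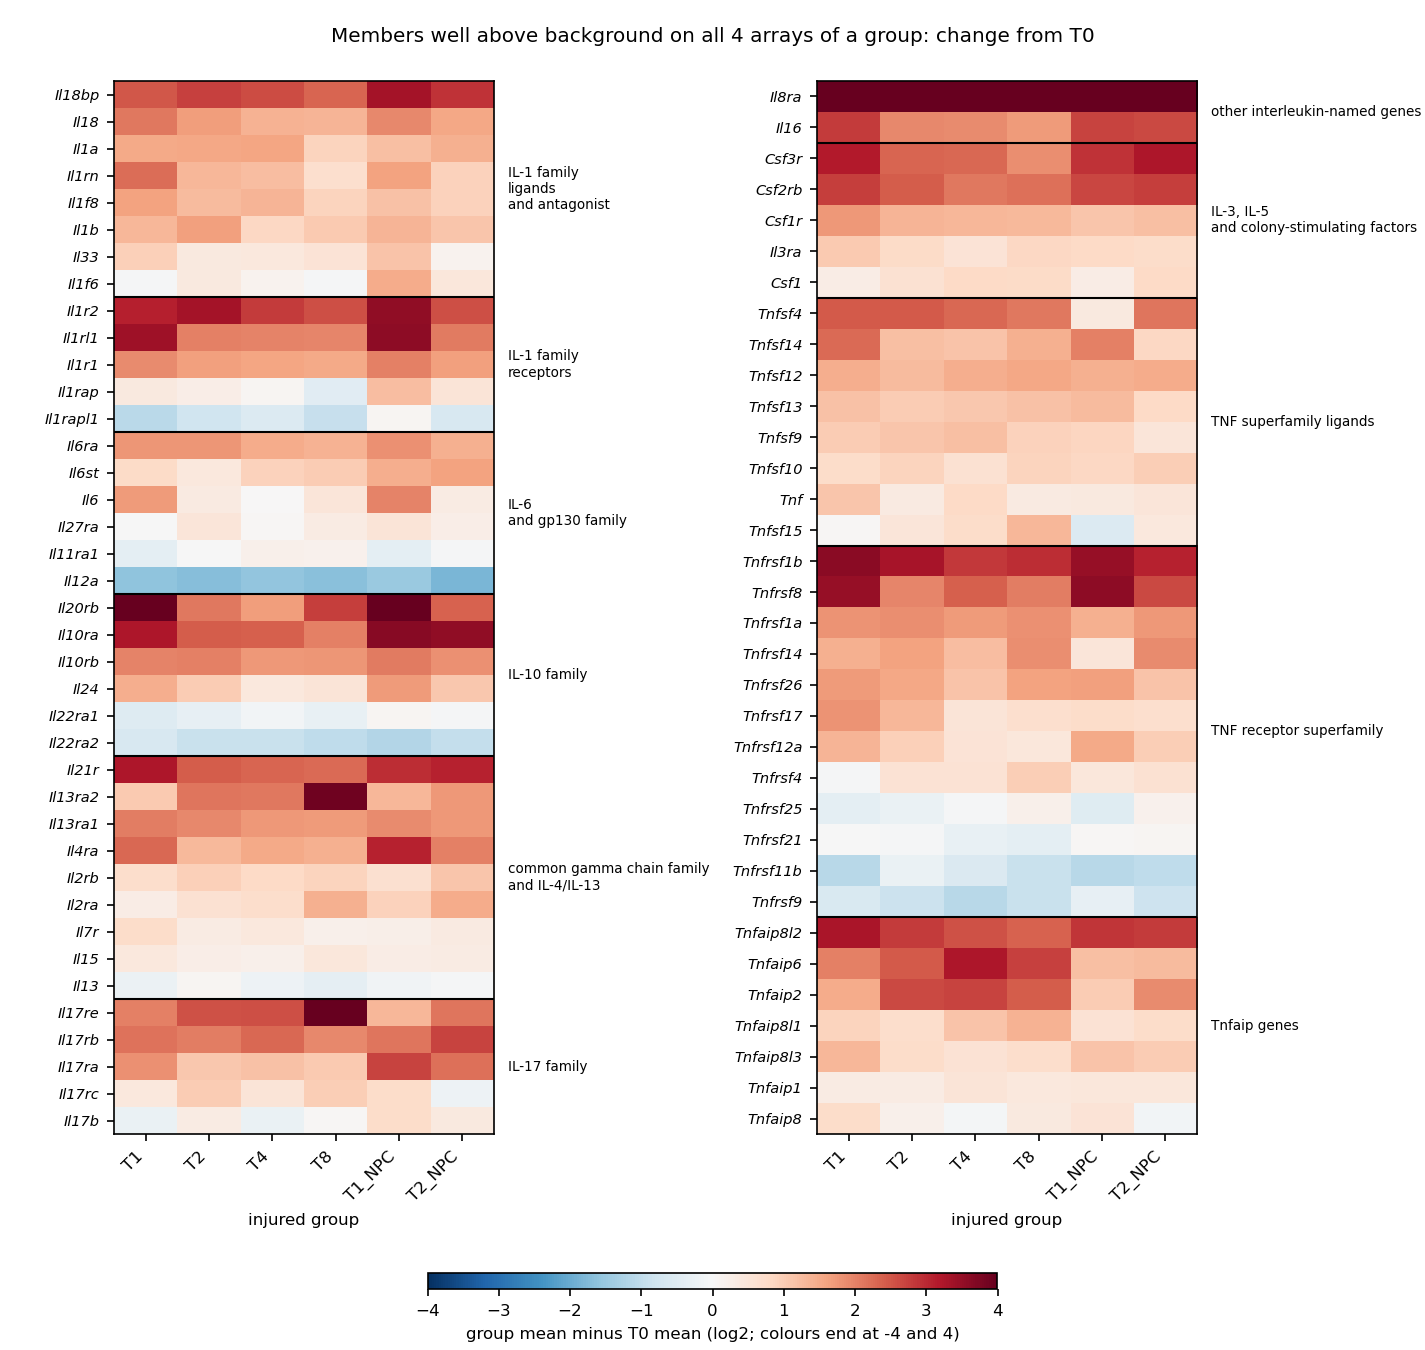
Difference of each group mean from the T0 mean (log2 scale, 4 arrays per group) for the 73 members well above background on all 4 arrays of at least 1 group, ordered by role. Colours end at 4 in either direction. The choice of members favours warm colours, since a member dim in T0 is kept only where another group is bright, and differences of such members are measured against background; Il12a is cold in every injured group.

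Among the ligands and antagonists of the interleukin-1 family, 7 of 10 members rose at T1 and none fell, and 6 of 10 were still higher at T8. Il1b, the inflammasome-processed form of interleukin-1, read 7.26, 7.67, 8.10 and 7.38 in T0 and 8.79, 8.97, 8.79 and 9.15 in T1, so that no injured array fell below a control array. The difference was 1.32 ± 0.26 (limma, adjusted p = 0.000219) at T1, and it was 1.66, 0.83 and 1.05 at T2, T4 and T8. Il1a, the form that acts as an alarm signal from dying cells, rose by 1.51, 1.55 and 1.57 at T1, T2 and T4, and its T8 arrays read 6.47, 6.30, 6.52 and 5.25 against 5.01 to 5.50 in T0. The antagonist that occupies the same receptor without signalling, Il1rn, moved more at first: it read 6.40, 6.34, 6.28 and 6.40 in T0 and 8.67, 8.74, 8.45 and 8.47 in T1. The difference of 2.23 ± 0.19 was 4.68-fold (limma, adjusted p = 1.29e-09), and by T8 it was 0.66, with 1 T8 array (6.33) inside the T0 range. The 2 probes of Il1rn differed by 0.097 and 1.23 at T8 against T0, and only 1 of them was well above background on all arrays of either group. Il18, another inflammasome product, rose by 2.12 ± 0.14 at T1 and was 1.35 higher at T8. Il18bp, the secreted protein that neutralizes interleukin-18, rose by 2.48, 2.74, 2.60 and 2.34 at the 4 times. Il33, a nuclear alarmin, rose by 0.94 ± 0.15 at T1, and the later differences were 0.38, 0.43 and 0.54. Il1f8 (now Il36b) rose by 1.61, 1.26, 1.37 and 0.88.

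The receptors of this family did not all move the same way: of 9 members, 3 rose and 1 fell at T1. Il1rl1, the receptor for interleukin-33, was well above background on none of the T0 arrays (3.19, 3.76, 3.94 and 3.91) and on all T1 arrays (7.35, 6.20, 7.49 and 7.37). This put it at least 8.45-fold higher at T1 (limma, adjusted p = 1.57e-10), and at least 3.22-fold, 3.14-fold and 3.09-fold higher at T2, T4 and T8. Its 2 probes differed by 2.39 and 4.42 at T1 and by 1.94 and 1.96 at T8 against T0. Il1r2, the decoy that binds interleukin-1 without signalling, read 5.29, 4.18, 5.37 and 4.60 in T0 and 8.44, 7.94, 7.73 and 7.76 in T1, with no overlap. It rose by 3.11 ± 0.49, 3.34, 2.78 and 2.58 at the 4 times, and the signalling receptor Il1r1, above background on 1 T0 array, rose by 1.89, 1.65, 1.57 and 1.52. In contrast, Il1rapl1, a synaptic relative of the interleukin-1 receptor accessory protein, fell: it read 5.08, 5.18, 4.68 and 4.91 in T0 and 3.47, 3.90, 4.13 and 4.02 in T1. Its differences were -1.08 ± 0.20, -0.78, -0.56 and -0.93. The accessory protein Il1rap itself passed at no time against T0.

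The TNF receptors TNFR2 (Tnfrsf1b), found mainly on leukocytes, microglia and endothelium, and TNFR1 (Tnfrsf1a), which most cells carry, both rose. Tnfrsf1b read 9.07, 8.79, 9.32 and 8.90 in T0 and 12.61, 12.67, 12.48 and 12.80 in T1, so the groups lay over 3 log2 units apart at their nearest arrays. The difference was 3.62 ± 0.19, or 12.3-fold (limma, adjusted p = 6.28e-13), and it was 3.30, 2.84 and 2.95 at T2, T4 and T8. Tnfrsf1a rose by 1.78 ± 0.20 at T1 (3.44-fold) and by 1.85, 1.71 and 1.83 later. The ligand was close to background. Tnf was well above background on no T0 array (3.25, 3.66, 3.14 and 3.80) and on all T1 arrays (4.25, 4.75, 4.17 and 5.12), at least 1.46-fold higher (limma, adjusted p = 0.00726), and it passed at no later time.

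Of the 10 TNF superfamily ligands, 9 rose in T1, then 7, 6 and 8 in the later groups, and none fell in any injured group. Tnfsf4 (OX40 ligand), a costimulator of T cells, read 8.39, 7.66, 7.70 and 7.70 in T0 and 10.17, 10.63, 10.14 and 10.32 in T1. It rose by 2.45 ± 0.58 (limma, adjusted p = 0.00124) and by 2.45, 2.31 and 2.12 at the later times. Tnfsf14 (LIGHT) was above background on no T0 array and on every array of each injured group, at least 3.24-fold higher at T1 and at least 1.78-fold at T8. Its receptor Tnfrsf14 rose by 1.44, 1.61, 1.24 and 1.86, and the 2 probes of Tnfrsf14 differed by 0.55 and 2.32 at T1. Tnfsf12 (TWEAK) rose by 1.47, 1.25, 1.46 and 1.53, and its receptor Tnfrsf12a (Fn14), known as an early injury gene, rose by 1.36 ± 0.14 at T1 and by 0.94, 0.56 and 0.46 after that. Tnfsf13 (APRIL), a survival factor of plasma cells, rose by 1.19, 1.02, 1.08 and 1.18, and Tnfrsf17 (BCMA), a receptor for it, rose by 1.79 and 1.34 at T1 and T2. Tnfsf9, the ligand of the T cell costimulator 4-1BB, rose by 1.03, 1.10, 1.21 and 0.94. The death ligand Tnfsf10 (TRAIL) was above background on no T0 array and at least 1.13-fold and 1.12-fold higher at T2 and T8.

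Among the 13 TNF receptors, 7 rose and 1 fell at T1, and 7 rose and 3 fell at T8. Tnfrsf8 (CD30), an activation marker of lymphocytes, was above background on no T0 array and read 5.00, 5.28, 4.90 and 5.74 in T1, at least 2.3-fold higher (limma, adjusted p = 4.74e-09). Tnfrsf11b (osteoprotegerin), a secreted decoy, read 10.01, 10.52, 10.10 and 10.09 in T0 and 8.84, 9.25, 9.61 and 8.55 in T1. It fell by 1.12 at T1 (SE 0.23) and by 0.89 at T8, and it did not pass at T2 or T4. Tnfrsf9 (4-1BB) had differences of -0.86, -1.12 and -0.90 at T2, T4 and T8, and Tnfrsf21 (death receptor 6) one of -0.38 at T8.

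Of the 7 TNF-alpha-induced proteins, 6 rose at T1 and 4 at each later time. Tnfaip8l2 (TIPE2), which restrains immune receptor signalling, read 9.86, 10.15, 10.18 and 9.98 in T0 and 13.14, 13.46, 12.95 and 13.67 in T1. The difference was 3.26 ± 0.17, or 9.58-fold (limma, adjusted p = 3.42e-13), and it was 2.81, 2.55 and 2.35 afterwards. Tnfaip6 (TSG-6), which binds hyaluronan in the matrix, rose by 2.02, 2.44, 3.23 and 2.75. Tnfaip2, an NF-kappaB target first found in endothelium, rose by 1.50, 2.64, 2.69 and 2.42.

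In the interleukin-6 and gp130 family, which here also held the interleukin-12 chains, 3 of 12 members rose and 2 fell at T1. Il6 was above background on no T0 array (2.86, 3.16, 3.09 and 2.47) and on all T1 arrays (4.95, 4.39, 4.81 and 4.29), at least 1.5-fold higher (limma, adjusted p = 0.000639), and it passed at no later time against T0. Its binding receptor Il6ra rose by 1.76, 1.76, 1.48 and 1.38. The shared signal chain Il6st (gp130) rose by 0.77 at T1, 0.93 at T4 and 1.01 at T8. Il12a, the p35 chain that interleukin-12 and interleukin-35 share, went the other way. It read 8.89, 8.59, 8.51 and 8.25 in T0 and 7.09, 6.90, 7.07 and 6.74 in T1, with a gap of over 1 log2 unit between the groups. Its differences were -1.61 ± 0.19 (limma, adjusted p = 3.8e-07), -1.71, -1.59 and -1.66, a fall at every time. Il11ra1, the interleukin-11 receptor, had a difference of -0.40 at T1. Il11 passed at no time.

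In the interleukin-10 family, 4 of 9 members rose and 1 (Il22ra1) fell at T1, and Il10 itself passed at no time against T0. Il10ra, the ligand-binding chain of the interleukin-10 receptor, read 4.06, 4.99, 4.39 and 4.90 in T0 and 6.90, 8.17, 7.49 and 8.74 in T1. It rose by 3.24 ± 0.47 (limma, adjusted p = 5.78e-06) and by 2.42, 2.41 and 2.02 later, and its partner Il10rb rose by 1.97, 2.02, 1.73 and 1.75. Il20rb, a chain of the receptors for interleukins 19, 20 and 24, read 3.67, 3.50, 3.88 and 4.51 in T0 and 7.80, 8.38, 7.88 and 8.17 in T1. The groups did not overlap, but only 1 T0 array was well above background. The fitted differences, set against these dim controls, were 4.17 ± 0.31 (limma, adjusted p = 1.86e-10) at T1 and 2.12, 1.67 and 2.76 at T2, T4 and T8. Il24, 1 of its ligands, rose by 1.45 and 1.00 at T1 and T2. Il22ra2, the soluble interleukin-22 binding protein, had differences of -0.90, -0.89 and -1.003 at T2, T4 and T8, but its 2 probes differed in sign at T1 and again at T8, where they read -2.03 and 0.02.

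The interleukin-4 receptor chain Il4ra rose by 2.30, 1.31, 1.53 and 1.42, and Il13ra1, with which it pairs, rose by 2.05, 1.92, 1.73 and 1.70. Of the 15 members of the common gamma chain family with interleukins 4 and 13, 5 rose at T1 and 7 at T8, with none lower. Il21r, the interleukin-21 receptor of lymphocytes, read 6.33, 6.84, 6.85 and 7.27 in T0 and 9.98, 9.96, 9.69 and 10.64 in T1, a rise of 3.25 ± 0.36 (9.49-fold; limma, adjusted p = 1.23e-07). Il7r rose by 0.73 at T1, and Il15 rose by 0.42 at T1 and 0.45 at T8. Il4, Il7 and Il13 passed at no time against T0.

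The chemokine receptor Il8ra (now Cxcr1), which is known from neutrophils, rose at every injured time. It read 2.36, 2.32, 2.09 and 2.61 in T0, on no array above background, and 8.00, 9.34, 7.97 and 9.10 in T1. It was at least 23.9-fold higher at T1 (limma, adjusted p = 1.58e-06), and then at least 56.3-fold, 37.5-fold and 31.2-fold higher at T2, T4 and T8, where its readings were 10.25, 9.89, 9.22 and 10.01, then 8.22, 9.32, 9.44 and 10.04, then 9.30, 9.31, 8.86 and 8.49. Il8rb (Cxcr2) passed at no time. Il16, a CD4 ligand, rose by 2.80, 1.92, 1.89 and 1.71.

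In the interleukin-17 family, whose receptors act on epithelium, glia and endothelium, 3 of 6 members rose and 1 fell at T1, and 4 rose and none fell at each later time. The shared receptor chain Il17ra read 4.96, 5.61, 4.65 and 5.85 in T0 and 6.71, 7.38, 6.56 and 7.69 in T1, with no overlap. It rose by 1.81 ± 0.29 (limma, adjusted p = 1.94e-05) and by 1.07, 1.17 and 1.06 later. Il17rc rose by 1.03, 0.53 and 0.997 at T2, T4 and T8 after reading 6.56 to 6.86 in T1 against 6.05 to 6.56 in T0. Il17re, described with the late changes, rose at all 4 times.

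Of the colony-stimulating factors and their receptors, with interleukins 3 and 5, 5 of 10 rose at every time. The same 5 genes rose throughout: Csf1, Csf1r, Csf2rb, Csf3r and Il3ra. Csf1r, the receptor on which microglia depend, rose by 1.73 ± 0.26, 1.36, 1.34 and 1.29, and its 3 probes differed by 0.51 to 2.63 at T1. Csf1, a ligand of this receptor, rose by 0.31, 0.62, 0.80 and 0.77. Csf3r, the granulocyte colony-stimulating factor receptor, read 4.87, 6.16, 5.27 and 6.27 in T0 and 8.46, 8.90, 8.43 and 9.42 in T1, a rise of 3.16 ± 0.42 (limma, adjusted p = 1.34e-06). Csf2rb, the chain shared by the receptors for interleukins 3 and 5 and granulocyte-macrophage factor, was above background on no T0 array and at least 4.58-fold higher at T1. The ligands Csf2 and Csf3 passed at no time.

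**Figure D3:**
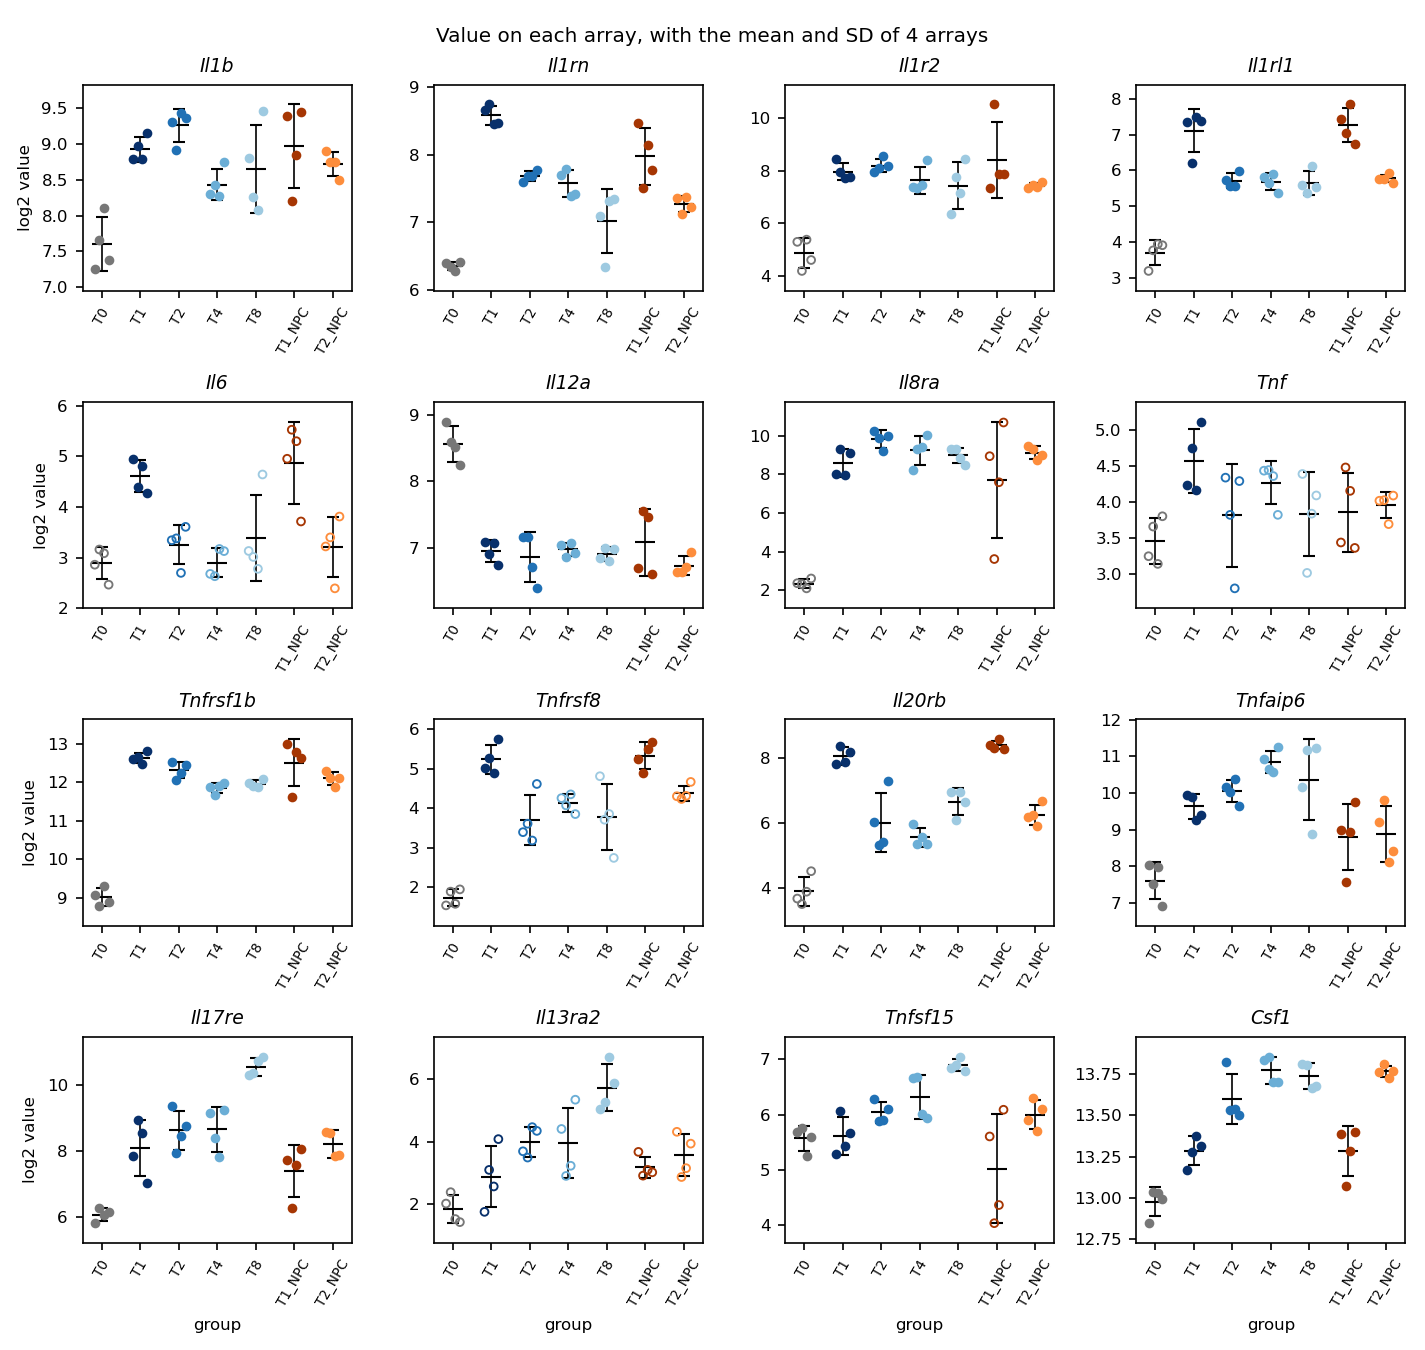
Log2 expression of 16 members on every array, by group (4 arrays each). Each point is 1 array, filled where the member was well above background on all 4 arrays of its group and open where it was on fewer, and the bar is the group mean ± SD. The panels have their own axes, so levels are not compared between genes; Il20rb and Il1rn peak at T1, Il17re and Il13ra2 are highest at T8, and Il12a is lower in every injured group.

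Markers of microglia and macrophages, T cells and neutrophils moved with these rises, and their part in them was not tested. Of the 3 B cell markers on the array, 0 passed at any time against T0. None of these 3 was well above background on all 4 arrays of a group. Of 11 microglia and macrophage markers, 10 rose at T1 and none fell, and the mean over the list lay at 8.56 to 9.002 across T0 arrays and at 11.4 to 11.98 across T1 arrays. It was 10.7 to 11.1 at T8. All 7 T cell markers rose, the list mean lying at 4.06 to 4.63 in T0 and at 6.45 to 7.13 in T1. Of 6 neutrophil markers 3 rose at T1 and 1 at T8, with list means of 2.89 to 3.87 in T0, 5.33 to 5.70 in T1 and 4.47 to 4.97 in T8, and Mpo was above background on no T0 or T1 array. Of 8 neuron markers 7 fell, the list mean lying at 12.8 to 13.2 in T0 and at 10.9 to 11.8 in T1, beside the falls of Il12a and Il1rapl1. The labelled tissue carried its defining markers: the 8 neuron, 6 oligodendrocyte and 6 astrocyte markers were above background in T0.

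Genes that carry the signal inside the cell are given for the pathway. Of 34 interleukin-1 and TNF adaptors, proteases and NF-kappaB genes, 24 rose and 3 fell at T1, and 22 rose and 3 fell at T8. The necroptosis kinase Ripk3 rose by 3.34 at T1, Casp8 by 2.86, the inflammasome sensor Nlrp3 by 2.78, the adaptor Myd88 by 2.57 and Casp1, which processes interleukins 1 and 18, by 2.25. Of 22 Janus kinases, STAT factors, SOCS proteins and phosphatases, 16 rose and 2 fell at T1, led by Stat6 (3.09) and the phosphatase Ptpn6 (2.93), with Stat3 at 1.13 and its inhibitor Socs3 at 1.08. Of 32 related ligands and receptors whose names the rule does not cover, 11 rose and 5 fell, among them the gp130 ligand Clcf1 (2.60) and Cd40 (2.51), and the CD27 ligand Cd70 (-1.28).

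Next, each time was set against an earlier one, to ask which members went on changing. From T1 to T2, 6 members passed, 1 higher and 5 lower, where 1.48% of all gene names passed. Il20rb fell by 2.05 (SE 0.31; limma, adjusted p = 0.00126), from 7.80 to 8.38 across T1 arrays to 6.03, 5.32, 5.40 and 7.28 in T2. The other falls were Tnfrsf8 (-1.54, with 1 T2 array above background), Il1rl1 (-1.39), Tnfsf14 (-1.06) and Il1rn (-0.90). Tnfaip2 rose by 1.14, a call that 6 of 8 single-array omissions ended (differences 1.01 to 1.28). None of these 6 overlapped between T1 and T2. With scaling to the 75th percentile the split was 4 higher and 5 lower. That scaling also raised the median of all gene names, and the share of all gene names passing under it is not given here. Without T2 replicate 1 the count was 2 and without T2 replicate 3 it was 3. From T2 to T4 and from T4 to T8, limma found 0 members, where 0.0761% (0.0507% higher, 0.0254% lower) and 0.0902% (0.0874% higher, 0.00282% lower) of all gene names passed. At an unadjusted p under 0.05 there were 9 and 12 members. The share of all gene names at that looser threshold is not given here, so these counts say nothing particular about the members. For these 2 steps, other settings gave 0 to 1 and 0 to 2 members.

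Over the whole span, from T1 to T8, 23 members passed, 8 higher and 15 lower, where 9.87% of all gene names passed, 5.45% higher and 4.42% lower, and 20 of the 23 did not overlap. With scaling to the 75th percentile of each array in place of quantile normalization, the split was 14 higher and 11 lower. That scaling also raised the median of all gene names. The share of all gene names passing under it is not given here, so the split says nothing particular about the members. Il17re, a receptor chain for interleukin-17C, read 5.80, 6.26, 6.05 and 6.14 in T0, 7.83, 8.93, 8.54 and 7.02 in T1, and 10.28, 10.36, 10.71 and 10.84 in T8. The T8 arrays were thus above every array of the other 6 groups. Its rise from T1 to T8 was 2.47 ± 0.40 (limma, adjusted p = 0.00016), and against T0 it was 2.02, 2.56, 2.58 and 4.49 at the 4 times. Il13ra2, the interleukin-13 decoy receptor, read 1.77, 3.10, 2.57 and 4.08 in T1, 1 array above background, and 5.06, 5.28, 6.71 and 5.86 in T8, all above background. It passed from T1 to T8 (limma, adjusted p = 0.000335), where the size is not given because 3 T1 arrays were not above background, and it was at least 3.25-fold higher at T8 than in T0, where it was above background on no array. Tnfsf15 (TL1A), an endothelial ligand, read 5.29, 6.07, 5.44 and 5.66 in T1 and 6.85, 6.90, 7.04 and 6.78 in T8, a rise of 1.28 ± 0.31 that passed first at T8. The other late rises were Il2ra (1.10), Tnfrsf4 or OX40 (1.05), Tnfaip2 (0.93), Il11ra1 (0.56) and Csf1 (0.46). The T1 and T8 arrays overlapped for Il2ra and Il11ra1, and the 2 probes of Il2ra differed in sign at T1 against T0.

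The falls from T1 to T8 included those of Il1rn (-1.56 ± 0.19; limma, adjusted p = 3.87e-06), Tnfrsf8 (-1.46, 2 T8 arrays above background), Il1rl1 (-1.45) and Il20rb (-1.40). Csf3r (-1.30), Il6 (-1.22, 1 T8 array above background), Tnfrsf17 (-1.12) and Il16 (-1.08) followed. Smaller falls were Il24 (-0.95), Tnfaip8l2 (-0.91), Tnfrsf12a (-0.91), Tnfsf14 (-0.86), Il1rap (-0.84), Il18 (-0.77) and Tnfrsf1b (-0.68). Il6 overlapped, since 1 T8 array read 4.64 within the T1 range of 4.29 to 4.95. When single arrays were left out in turn, 6 of 8 omissions ended the call for Csf3r (differences -1.47 to -1.10) and 7 of 8 that for Il6 (-1.63 to -1.01), whereas no omission ended it for Il1rn, Il1rl1, Il20rb, Il17re or Il13ra2. The 2 probes of Il1rl1 differed in size, however, with -2.48 and -0.42 from T1 to T8. Within session 1, which holds 1 T1 array, and within session 2, every one of the 23 kept its direction. The undisputed arrays of T1 and T8 are those of session 1, so they are no separate check. Over the same span 0 of the 11 microglia and macrophage markers rose and 1 (Cd68) fell, and 3 of 6 astrocyte markers rose. Among genes outside the rule, the leptin receptor Lepr rose by 2.07 and the interleukin-27 and interleukin-35 chain Ebi3 had a difference of -1.01.

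**Figure D4:**
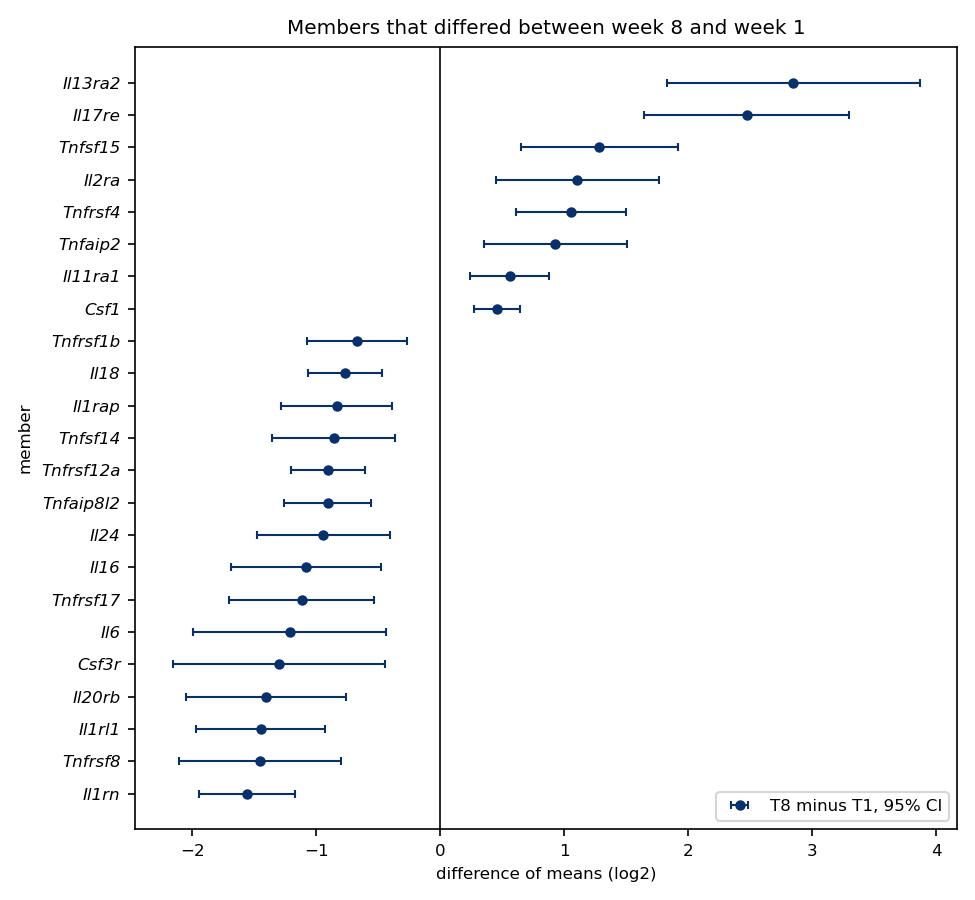
Difference between T8 and T1 (log2 scale, 4 arrays per group) for the 23 members that passed the test, with the 95% confidence interval of the limma fit. Points right of zero were higher 8 weeks after injury: 8 members, among them Il17re (2.47), against 15 lower members, among them Il1rn (-1.56). Il13ra2 was well above background on 1 T1 array, and Il6 and Tnfrsf8 on 1 and 2 T8 arrays, so that the size of their differences is set against background.

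The last comparisons ask what differed 1 week after transplantation. The transplanted arrays were scanned in a session and on slides of their own, so that scan session, slide and transplantation cannot be told apart in either comparison. If tacrolimus was given to transplanted animals only, it cannot be told apart from transplantation either. Per the study's methods, injured controls were injected with an equal volume of medium without cells. In T1_NPC against T1, 14 members passed, 11 higher and 3 lower, where 11.9% of all gene names passed, 5.45% higher and 6.46% lower, and 12 of the 14 did not overlap. Replicate 2 of T1_NPC stood apart: 32 of the 104 members (30.8%) lay over 1 log2 unit from the median of the other 3 arrays of its group, as did 18.1% of all gene names, against 3 to 15 members on each other array. Without it 7 members passed: Il1f6, Il1rap, Il1rapl1, Il22ra1, Il27ra, Tnfrsf10b and Tnfsf4. Without T1 replicate 2 the count was 9 and without T1 replicate 3 it was 8. With slide as a random block 6 members passed, and with scaling to the 75th percentile 25 passed, 22 higher and 3 lower. That scaling also raised the median of all gene names. The share of all gene names under either setting is not given here, so these counts say nothing particular about the members. The T1_NPC arrays had 74.5% to 76.4% of spots well above background and the T1 arrays 79.0% to 81.9%.

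Il1f6 (now Il36a), an agonist of the interleukin-36 receptor, read 3.75, 3.92, 3.35 and 4.18 in T1, 2 arrays above background, and 5.32, 5.71, 5.21 and 5.18 in T1_NPC, all above background. It rose by 1.55 ± 0.23 (limma, adjusted p = 0.000136), with no overlap. Il1rapl1 read 4.84, 5.66, 5.09 and 4.52 in T1_NPC against 3.47 to 4.13 in T1, a rise of 1.15 ± 0.20 (limma, adjusted p = 0.000743). Its fall at T1 against T0 rests on the same T1 arrays, so this rise is no separate sign of a reversal. The lowest signal among spots well above background was 4.21 to 4.44 across T1_NPC arrays and 3.39 to 3.98 across T1 arrays. The part of this shift in the rises of dim members, such as Il1f6, Il1rapl1, Il10, Tnfrsf10b and Il22ra1, was not tested. Il1rap, the chain that every signalling interleukin-1 receptor needs, rose by 0.85 and read 10.50, 10.66, 10.23 and 10.21 against 9.40 to 9.90. Il10 was above background on no T1 array and on 2 T1_NPC arrays, which read 4.16, 6.76, 4.93 and 4.10 (at least 2.38-fold, adjusted p = 0.0268). Its highest value was replicate 2, and without that array the difference was 0.68 (adjusted p = 0.0769). The death receptor Tnfrsf10b was above background on no T1 array and 1 T1_NPC array; it passed as higher (adjusted p = 7.53e-05), and no fold is given. The other rises were Il17b (0.98), Il17ra (0.88, adjusted p = 0.05 after rounding), Il18bp (0.83), Il6st (0.66), Il22ra1 (0.61) and Il27ra (0.55).

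Tnfsf4 read 9.67, 4.99, 9.19 and 9.21 in T1_NPC against 10.14 to 10.63 in T1, a difference of -2.05 ± 0.58 (limma, adjusted p = 0.0231). All 4 transplanted arrays lay below the T1 arrays, but replicate 2 set the size, which was -0.96 without it (adjusted p = 0.0027). Tnfrsf17 fell by 1.06, and Il1rn had a difference of -0.61 with overlapping groups. The mean of the microglia and macrophage list was 10.6 to 11.9 across T1_NPC arrays and that of the T cell list 4.71 to 7.39, both with wider ranges than in T1. Among signalling genes, Socs3 (0.93) and Socs1 (0.82), which inhibit cytokine receptor signals, rose, and Ripk3 had a difference of -0.73.

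In T2_NPC against T2, 5 members passed, 3 higher and 2 lower, where 9.47% of all gene names passed, 4.62% higher and 4.85% lower, and 4 of the 5 did not overlap. None of the transplanted arrays is disputed here, but replicates 1 and 4 of T2 are. Il6st read 10.75, 11.13, 11.07 and 11.36 in T2 and 12.33, 12.39, 12.003 and 12.34 in T2_NPC, a rise of 1.19 ± 0.18 (limma, adjusted p = 0.00023). Il17ra, the chain shared by several interleukin-17 receptors, rose by 1.14 ± 0.29 (adjusted p = 0.0159), with readings of 7.37, 7.43, 7.45 and 7.66 against 5.98 to 6.71. Il17rc, its partner for interleukins 17A and 17F, went down: it read 7.76, 6.72, 7.36 and 7.51 in T2 and 5.86, 6.44, 6.14 and 5.93 in T2_NPC. This difference was -1.25 ± 0.20 (adjusted p = 0.000382), with no overlap. Il1f10 passed as higher (adjusted p = 0.0153) but was above background on no T2 array and on 1 T2_NPC array, and no fold is given. Tnfrsf11b had a difference of -0.73 with overlapping groups. With slide as a random block 3 members passed, Il6st, Il17ra and Il17rc, and with scaling to the 75th percentile 3 were higher and 1 lower. The share of all gene names under either setting is not given here. Without T2 replicate 1 or 3 the count was 3, and without T2 replicate 4 it was 9.

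Il6st and Il17ra were higher in both transplanted groups and also moved with scan session in the time course. Between sessions 1 and 2 Il17ra differed by 0.61 (limma, adjusted p = 0.00793) and Il6st by 0.34 (adjusted p = 0.0161), session 2 being higher, and in T0 alone the session means were 10.27 and 11.02 for Il6st. The differences between the same sessions were 0.36 for Il17rc, 0.43 for Il1f6 and 0.34 for Il1rapl1. The part of the scan session in the transplantation results was not tested, since no injured control lies in the third session. The difference between both transplantation effects was tested in the same model. It passed for 2 members, where 0.299% of all gene names passed (0.127% with the larger effect in T2_NPC, 0.172% with the smaller): Il17rc (-1.54, adjusted p = 0.0121) and Il1f6 (-1.52, adjusted p = 0.0411), both with the smaller or negative effect in T2_NPC. In T2_NPC, Il1f6 read 4.29, 4.32, 4.42 and 4.17 against 3.48 to 4.74 in T2. In T1_NPC, Il17rc read 6.70, 7.36, 6.83 and 7.26 against 6.56 to 6.86 in T1. For Il10 and Tnfsf4, which passed in T1_NPC against T1 only, the difference did not pass.

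**Figure D5:**
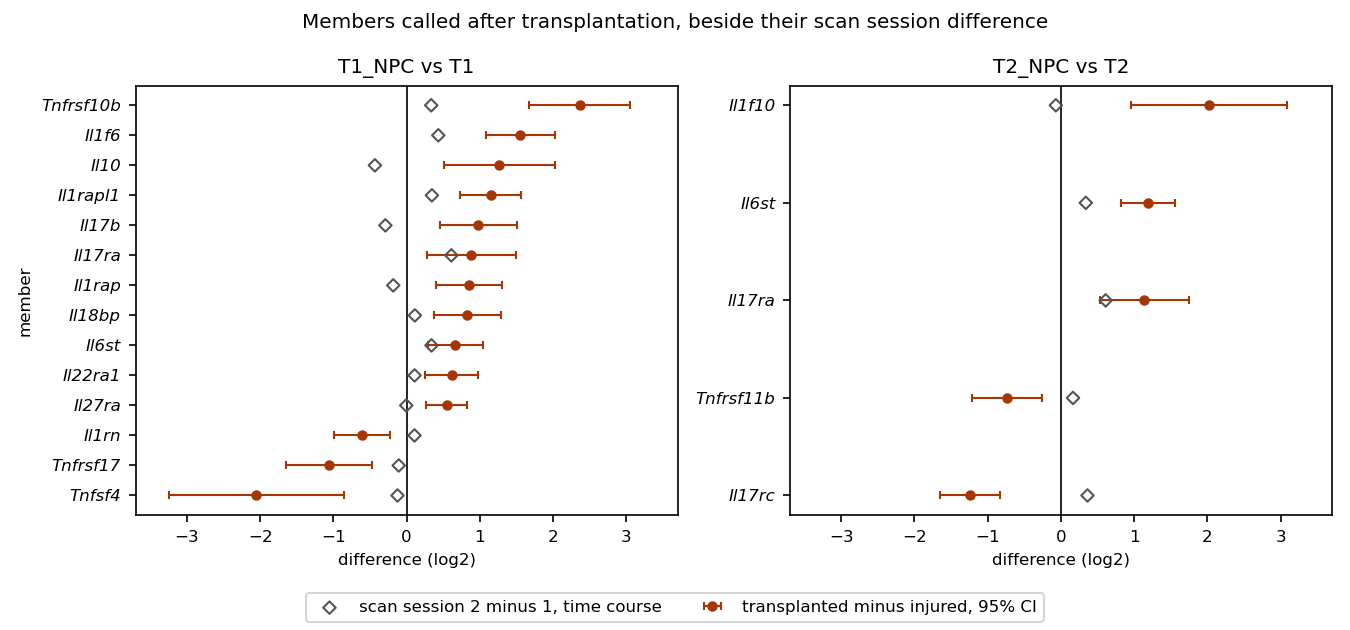
Difference between transplanted and time-matched injured groups (log2 scale, 4 arrays per group) with the 95% confidence interval of the limma fit, for the 14 members that passed in T1_NPC against T1 and the 5 that passed in T2_NPC against T2. Hollow diamonds give the difference between scan sessions 2 and 1 in the time course for the same members, such as 0.61 for Il17ra and 0.34 for Il6st.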

How the data were processed

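RNA from 28 cord samples was hybridised to 1-colour Agilent rat arrays, 4 per group, and scanned with Agilent Feature Extraction (version not given in the sources used here). The authors corrected the background and quantile-normalized the signals, and deposited them as a table of log2 values, which is the main source here. They also deposited the scanner intensity of each array, of which 8 outputs carry gene names. Spots were joined to these names through the feature number, and spots, then probes, were averaged per gene name (43379 spots, 35469 names). Genome coordinates come only from RefSeq, on which 86 of the 104 members matched, 7 under a newer symbol.

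All 7 group means were fitted together with limma 3.58.1 (lmFit and eBayes; R 4.3.3), and p-values were adjusted by Benjamini-Hochberg over all gene names. Replicates are separate animals. Tables and figures used Python 3.11.15, numpy 2.4.6, pandas 2.3.3 and scipy 1.17.1, and the fit was tested on simulated data. A member above background on no array of the lower group has only a lower bound of its fold: the higher group's mean against the mean of, per array, the larger of the lowest signal among probes above background and the member's own signal. Above-background marks, slide and scan session were taken from the scanner output that matches each column by rank. Precision is set by how many arrays each group holds.

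The members, gene lists and roles were chosen with earlier results of these data known. Named members were a list of well-known ligands and receptors, and the 3 members that rose most and the 3 that fell most in each comparison, if above background on all arrays of the higher group. A further 16 members were named after their values were seen. Of the listed names, Il2rg, Il34, Tnfsf13b, Tnfaip3 and Csf2ra were not analysed here. Alternatives covered the source and scaling of the values, background correction, disputed arrays, dim probes, brightest probe, variance moderation, arrays in the fit, slide, scan session, replicate block, a size threshold and each array left out. Leaving out outlier spots and the fit of the difference between sessions were chosen after seeing the data. Per the file headers, 20 of the scanner files lack the mean signal, so the normexp alternative (offset 50) used the median signal in place of the mean signal that had been planned.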

Additional observations from a re-analysis of the deposited data

Results flagged for a closer look

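In 66 members described with values, the highest or lowest of the 4 arrays of a group was checked against the other 3 in 462 groups. The limit used is one that about 1 in 20 such groups of independent values would pass by chance. The groups checked share arrays, and some members were named after their values were seen, so the count is not set against chance. Of the 462, 28 lay far from the others. Replicate 2 of T1_NPC accounted for 7 of them: Il1r2 was highest there (10.5), as was Il6st (12.3), whereas Il21r (8.00), Il16 (6.73), Tnfsf4 (4.99), Csf3r (6.99) and Il7r (5.13) were lowest. Replicate 4 of T4 was highest for Il1r2 (8.40) and lowest for Il17rc (6.56), Il16 (6.11) and Tnf (3.82). Other arrays of T1_NPC stood out for Il18bp (10.7, replicate 3), Il33 (11.8, replicate 3) and Tnfsf10 (4.90, replicate 1). In T0, replicate 1 was highest for Il33 (10.5) and Tnfsf4 (8.39). In T1, replicate 3 was lowest for Il1r1 (4.83) and highest for Tnfrsf10b (1.85), and replicate 2 was lowest for Il1rl1 (6.20). Replicate 1 of T2 was highest for Il1rap (9.84) and Csf1 (13.8), and replicate 4 of T2 was highest for Tnfrsf10b (3.08). In T8, replicate 2 was lowest for Il21r (8.55) and Il11ra1 (12.9), and replicate 1 was highest for Tnfrsf10b (2.21). In T2_NPC, replicate 2 was highest for Il33 (10.6), replicate 3 lowest for Il6st (12.003) and replicate 4 lowest for Tnfrsf10b (1.67). Tnfrsf10b was above background on no array of T1, T2, T8 or T2_NPC.

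The comparisons T2_NPC against T2 and T1_NPC against T1 differed, by the interaction of the limma fit, for Il17rc (-1.54, adjusted p = 0.0121) and Il1f6 (-1.52, adjusted p = 0.0411). For Il17rc the difference was -1.25 in T2_NPC against T2, with all 4 transplanted arrays below all 4 controls. For Il1f6 it was 1.55 in T1_NPC against T1, with all 4 above. The call for Il1f6 was lost in 12 of 16 single-array omissions (differences -1.78 to -1.36). The 2 transplanted groups lay on different slides and in a scan session without injured controls, so slide, session and transplantation cannot be told apart here. T1_NPC has no undisputed array.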

How the results depend on the processing

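Counts are of members passing the test. The shares of all gene names under these settings are not given, so a changed count says nothing particular about the members. Session 1 and the undisputed arrays each hold 1 array of T1 and 1 of T4, so counts under these settings rest on 1 array there. With scanner outputs under their deposited samples, 0 passed in every comparison, no named change passed, and 20 of 247 changed sign: Il1r2 at T1 against T0 (-0.27), Tnfrsf4 at T2 (-0.27) and T4 (-0.29) against T0, Csf3r (0.054), Il6 (0.13), Tnfaip8l2 (0.32) and Tnfrsf1b (0.53) at T8 against T1, Il10 (-0.58), Il17b (-0.19), Il17ra (-0.23), Il1f6 (-0.24), Il1rap (-0.15), Il1rapl1 (-0.086), Il22ra1 (-0.23), Il27ra (-0.048), Il6st (-0.22), Tnfrsf10b (-0.61), Tnfrsf17 (0.32) and Tnfsf4 (0.82) in T1_NPC against T1, and Il1f6 in the difference of both effects (0.67). No other setting reversed a named change. The 4 injury counts stayed within 1.5 times under every other setting, and with single arrays left out they were 56 to 65 at T1, 51 to 57 at T2, 48 to 53 at T4 and 54 to 59 at T8. For T2 against T1 (6) the count was 1 with only the groups compared, 10 with slide as a random or a fixed block, 12 with the session block, 1 and 3 within sessions 1 and 2, and 2 to 8 with single arrays left out. For T4 against T2 (0) it was 1 with undisputed arrays and 1 within session 2, and 0 with any single array left out. For T8 against T4 (0) it was 2 with undisputed arrays, and 1 under normexp, with dim probes left out, with trend and robust moderation, with the random slide, within session 1 and at most with single arrays left out (0 to 1). For T8 against T1 (23) it was 15 with undisputed arrays, 4 within session 1, 13 for changes of at least 1, and 16 to 20 with single arrays left out. For T1_NPC against T1 (14) it was 25 with the 75th percentile, 4 with only the groups compared, 6 with the random slide, 6 for changes of at least 1, and 7 to 15 with single arrays left out. For T2_NPC against T2 (5) it was 16 with undisputed arrays, 8 with the brightest probe, 9 with only the groups compared, 3 with the random slide, and 3 to 9 with single arrays left out. For the difference of both effects (2) it was 10 with the 75th percentile, 1 under normexp, with trend and robust moderation and with the random slide, 0 with only the groups compared, and 1 to 3 with single arrays left out. The cause of these shifts was not tested. Scaling to the 75th percentile moved the median of all gene names by -0.18 at T1 and -0.10 at T4 against T0, 0.12 at T2 and 0.16 at T8 against T1, 0.12 in T1_NPC against T1 and -0.14 in the difference. Of the 247 named changes, 43 were lost with at least 1 array left out; those lost in 5 or more of 8 omissions were Tnfaip2 at T2 against T1 (1.01 to 1.28), Csf3r, Il6, Il11ra1 (0.50 to 0.70), Tnfaip2 (0.79 to 1.06) and Tnfrsf1b (-0.73 to -0.62) at T8 against T1, Il11ra1 at T1 (-0.58 to -0.30), Il33 and Tnfrsf4 at T2, Il17rc, Il1rapl1 (-0.65 to -0.49) and Tnfrsf4 at T4 and Tnfrsf21 at T8 against T0, Il17ra (0.71 to 1.08) and Il1rn (-0.77 to -0.45) in T1_NPC, and Tnfrsf11b in T2_NPC (-0.88 to -0.52). Replicate numbers did not pair the samples, as no comparison had every pair's correlation over 0.1. With the replicate block the counts, in the order of the text, were 60, 55, 53, 58, 6, 0, 0, 23, 13, 4 and 1. Fits with undisputed arrays, with slide or session as a fixed block, or with time-course arrays alone give no value for T1_NPC against T1. Members near background have only bounds.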
